A study of Mus musculus with 26 samples.

Results

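The 10 genes described here, Axin2, Lef1, Tcf7, Nkd1, Sp5, Notum, Rnf43, Znrf3, Lgr5 and Dkk1, are feedback genes and other transcriptional targets of canonical Wnt signalling. They were taken by name, with earlier results of these data known, from a deposited expression table of 16718 genes. It holds all 10 of them, and all 10 passed the filter on low values in each comparison. The study follows the chemical reprogramming of mouse embryonic fibroblasts (MEF) into chemically induced pluripotent stem cells (CiPSC) by RNA sequencing of total RNA. The minus Chir course lacked Chir (CHIR99021, an inhibitor of the kinase GSK3) and had 5 libraries, from days 6, 12, 18, 22 and 30. The minus Brdu course lacked bromodeoxyuridine, a thymidine analogue, and had 7 libraries, from the same days and days 36 and 40. The all chemical course had 7 libraries from the same 7 days, MEF had 1 library and CiPSC had 6. The labels used here give neither the dose and schedule of the chemicals nor the strain and age of the animals, and do not say whether the CiPSC libraries came from separate cultures.

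In canonical Wnt signalling, a ligand binds Frizzled and LRP receptors at the cell surface and stops a complex built on Axin from marking beta-catenin for destruction, a mark that GSK3 places. Beta-catenin then enters the nucleus and activates genes with TCF and LEF factors, and a GSK3 inhibitor reaches the same step without a ligand. Many of the activated genes encode brakes on the pathway, acting on the ligand, the receptor or the destruction complex, so their RNA is widely used as a readout of the pathway.

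Values are whole-number scores with nearly the same total in every library, and the sources used here do not give the normalization. Each library had a median of 76 or 77 and a maximum of 21988, so sequencing depth is unknown and scores are compared between libraries for 1 gene, not between genes. A log2 change is a difference of log2(score + 1), which understates the change of genes near 0, and its error is the moderated standard error from limma. A gene is said to be higher or lower when its Benjamini-Hochberg adjusted p over all genes tested was under 0.05. There was 1 library per course and day, so days were the only repeats. Neighbouring days come from the same course and are not independent, and how a repeated course would vary was not measured.

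Of the 10 genes, 5 lie on chromosome 11 of the mm10 genome in the GENCODE M21 annotation. They are Axin2 (chr11:108920349-108950783, + strand), Tcf7 (chr11:52252371-52283014, - strand), Notum (chr11:120653788-120661175, - strand), Rnf43 (chr11:87662722-87735539, + strand) and Znrf3 (chr11:5276324-5444847, - strand). The others are Lef1 (chr3:131110471-131224356, + strand), Nkd1 (chr8:88521354-88594884, + strand), Sp5 (chr2:70474923-70477729, + strand), Lgr5 (chr10:115450311-115587780, - strand) and Dkk1 (chr19:30545863-30549665, - strand).

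TCF and LEF factors bind a short motif, which was searched as CTTTGAT and CTTTGAA on both strands of RefSeq promoter windows of GRCm38.p6. A window runs from 250 bases before to 50 bases after the annotated start, and the 2 motifs cannot match at the same place. Windows were at hand for 7 of the 10 genes, 12 windows in all, and those of 2 genes, Sp5 and Dkk1, held a match. Of all 32851 windows, 8.65% held one. The 250 bases before the Sp5 start (chr2:70474673-70474922, + strand) and the Dkk1 match with 10 bases on each side are shown. They belong to the only genes with a match and were picked with the scores known. Sp5 was lower without Chir. Dkk1 was not called in that comparison and was added because it varied like Sp5 over the courses and both were lower without Brdu. Tcf7 also varied like Sp5 and was lower without Brdu, but its windows held no match. Capitals mark the match, which starts 104 bases before the RefSeq start in Sp5 and 117 bases before it in Dkk1 (chromosome 19, - strand). For Dkk1 the GENCODE start, 30549665, lies within the 250 bases before the RefSeq start (chr19:30549497-30549746). By the GENCODE position the Dkk1 match therefore lies inside the gene, not before it. The only Nkd1 window (chr8:88527383-88527682) and the Rnf43 windows (from 87662837 and 87699647) lie wholly inside their genes by GENCODE. The sequence before the GENCODE start of Nkd1 and Rnf43 was thus not searched.
Sp5: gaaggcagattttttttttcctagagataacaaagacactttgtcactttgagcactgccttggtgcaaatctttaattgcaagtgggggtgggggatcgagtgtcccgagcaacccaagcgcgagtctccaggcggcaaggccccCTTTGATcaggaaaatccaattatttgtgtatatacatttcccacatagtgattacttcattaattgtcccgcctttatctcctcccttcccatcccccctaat
Dkk1: cctcccaaagCTTTGAAatcccatccc
A match is a run of letters and was not tested as a binding site, and no match in the other windows says only that these letters are not in them.

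**Figure D1:**
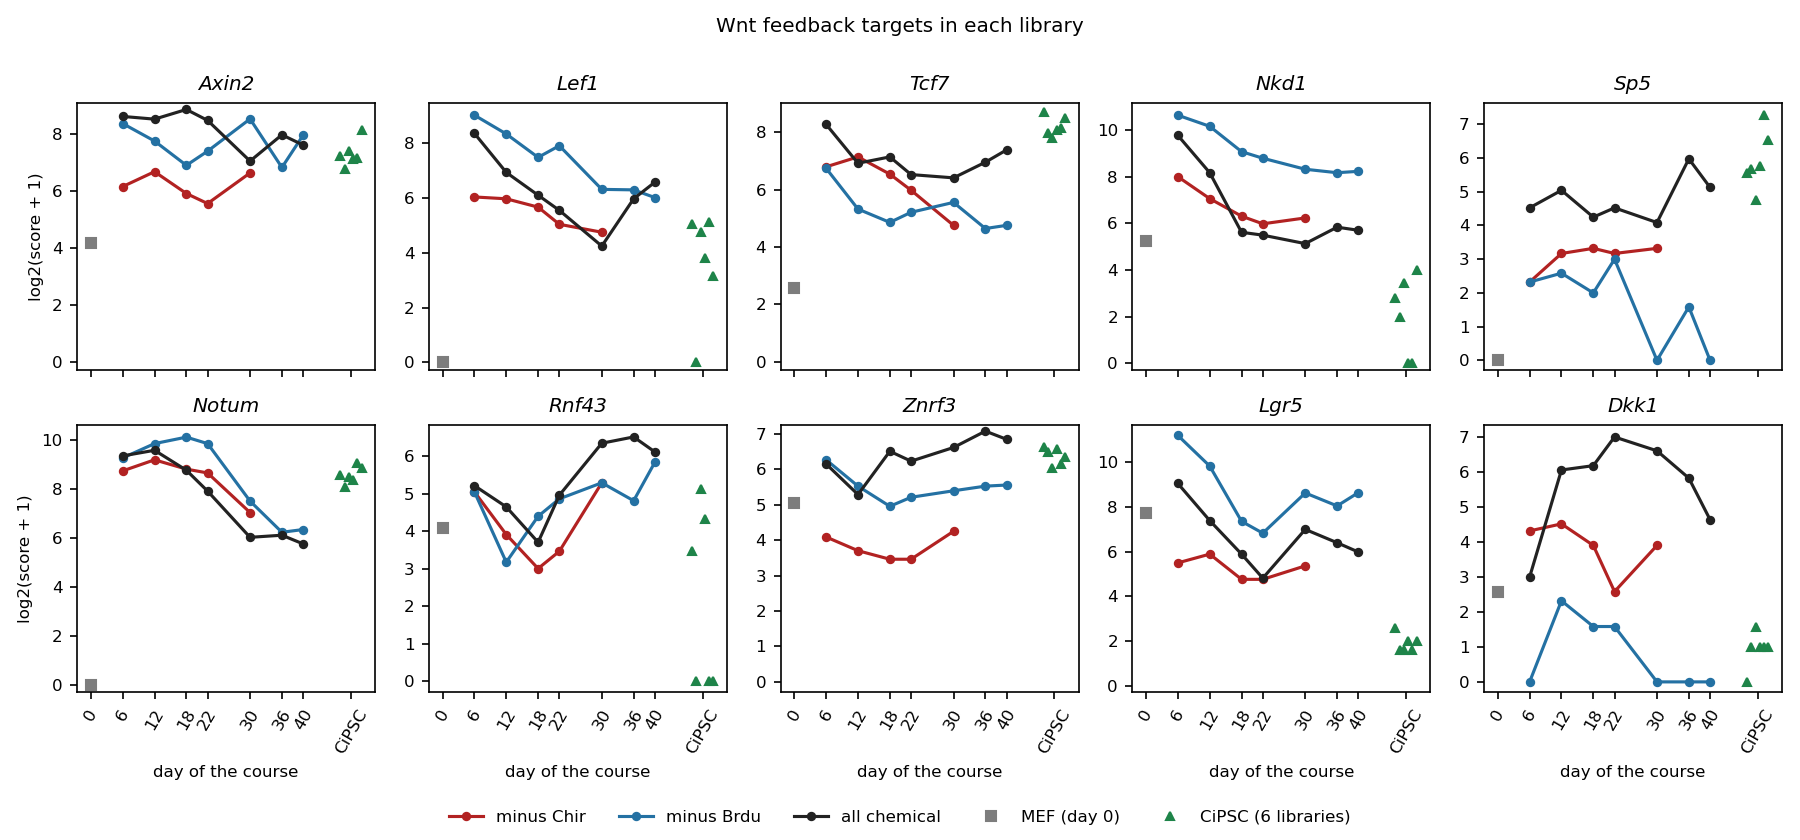
Deposited scores of the 10 genes, 1 panel per gene, in MEF, in the 3 courses by day of reprogramming and in the CiPSC libraries. Each point is 1 library on a log2(score + 1) axis. Axin2 and Znrf3 lie lowest in the minus Chir course on all 5 of its days, and Lgr5 and Dkk1 lie near 0 in CiPSC.

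The effect of leaving out Chir was asked by setting the minus Chir course against the all chemical course on their 5 shared days. Axin2, Znrf3, Sp5 and Lgr5 were lower without Chir, and none of the 10 genes was higher. Of all 16248 genes tested, 12.9% were lower and 13.5% were higher. The median log2 change was -1.13 over the 10 genes and 0.01 over all genes tested. The other 6 genes were not called, among them Nkd1 and Notum, 2 brakes on the pathway. In this comparison the name feedback targets of GSK3 inhibition therefore held unevenly over the 10 genes. A gene not called is not shown to be unchanged, and Nkd1 and Notum were lower in minus Chir than in minus Brdu, as given below.

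Axin2 encodes a scaffold of the complex that destroys beta-catenin, and is the most widely used readout of the pathway. In the minus Chir course Axin2 had scores of 70, 101, 59, 46 and 98 on days 6, 12, 18, 22 and 30, against 390, 365, 462, 354 and 131 in the all chemical course. The ranges did not overlap, and the gap was narrowest on day 30, when the all chemical library was at its lowest. The all chemical score was 5.57, 3.61, 7.83, 7.70 and 1.34 times the minus Chir score on these days. The log2 change was -2.12 ± 0.37 (limma, adjusted p = 0.0138).

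Znrf3 encodes a membrane ubiquitin ligase that removes Frizzled receptors from the cell surface. Znrf3 had scores of 16, 12, 10, 10 and 18 in the minus Chir course, against 70, 38, 90, 74 and 97 on the same days of the all chemical course. Each minus Chir library lay below each all chemical library. The log2 change of -2.37 ± 0.29 was the largest among the 10 genes in this comparison (limma, adjusted p = 0.00806). Rnf43, which encodes a closely related ligase, had 32, 14, 7, 10 and 38 without Chir, against 36, 24, 12, 30 and 80 with all chemicals. It was the smaller value on all 5 days, but the ranges overlapped and the log2 change of -0.83 ± 0.29 did not pass the test (limma, adjusted p = 0.0700).

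Sp5 encodes a zinc finger repressor of the Sp family that acts on Wnt target genes. Its scores were low throughout, at 4, 8, 9, 8 and 9 without Chir, against 22, 32, 18, 22 and 16 with all chemicals. The ranges did not overlap, and the log2 change was -1.42 ± 0.34 (limma, adjusted p = 0.0260). Lgr5 encodes a receptor for R-spondins, secreted proteins that keep Frizzled at the membrane by engaging Znrf3 and Rnf43. Lgr5 had 44, 58, 26, 26 and 40 without Chir, against 526, 166, 58, 27 and 126 with all chemicals. It was lower on all 5 days, by far the most on day 6 and by 1 unit of score on day 22 (log2 change -1.57 ± 0.45, limma, adjusted p = 0.0403).

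All 4 calls held without day 6, and each was lost without at least 1 of the other days, with no change of direction. Without day 18, none of the 10 genes and 25 of all genes passed the limma test (5 of the 10 had an unadjusted p under 0.05), and Znrf3 had an adjusted p of 0.0572, Axin2 of 0.0702, Sp5 of 0.0810 and Lgr5 of 0.102. Without day 22, 226 genes passed, among them Znrf3 but not Axin2 (adjusted p = 0.0637), Sp5 (0.0931) or Lgr5 (0.0639). Without day 12, Sp5 (0.0658) and Lgr5 (0.0885) were lost and Tcf7 (0.0431) was gained, without day 30 Lgr5 was lost (0.0937), and without day 6 Rnf43 (0.0486) and Dkk1 (0.0131) were gained. In 1 fit over the 19 course libraries 7 of the 10 genes were lower, with Tcf7 (0.0336), Rnf43 (0.0468) and Dkk1 (0.0184) added.

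Tcf7 and Lef1 encode DNA-binding partners of beta-catenin that are also induced by it. Tcf7 had 110, 140, 92, 62 and 26 without Chir, against 308, 120, 140, 91 and 84 with all chemicals (log2 change -0.81 ± 0.29, limma, adjusted p = 0.0748). Lef1 had 65, 62, 50, 32 and 26 without Chir, against 330, 122, 68, 46 and 18 with all chemicals (log2 change -0.75 ± 0.38, limma, adjusted p = 0.176). Both scores were smaller without Chir on 4 of 5 days, with the exception on day 12 for Tcf7 and on day 30 for Lef1. Dkk1 encodes a secreted antagonist that binds LRP receptors. Dkk1 had 19, 22, 14, 5 and 14 without Chir, against 7, 66, 72, 128 and 97 with all chemicals, so day 6 ran opposite to the 4 later days (log2 change -1.93 ± 0.73, limma, adjusted p = 0.0848).

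**Figure D2:**
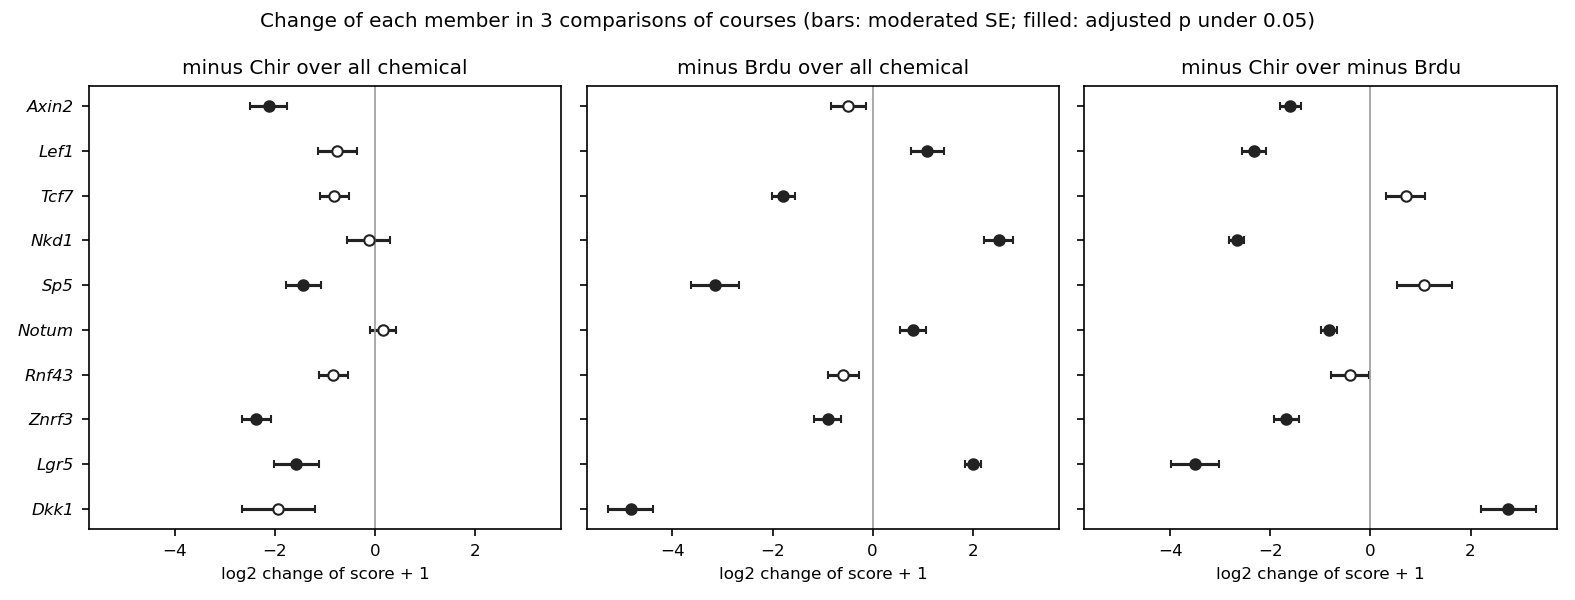
Log2 changes of the 10 genes with their moderated standard errors in the comparisons between courses. Filled points passed the limma test at an adjusted p under 0.05. Axin2 and Znrf3 lie lower in minus Chir against both other courses, whereas Nkd1 and Lgr5 lie higher in minus Brdu than in all chemical.

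For Nkd1 and Notum the difference between the courses changed sign over the days. Nkd1 encodes a protein that binds Dishevelled and dampens the signal inside the cell. Nkd1 had 254, 132, 78, 62 and 74 without Chir, against 867, 286, 48, 44 and 34 with all chemicals, so it was the smaller value on days 6 and 12 and the larger one on days 18, 22 and 30. Notum encodes a secreted enzyme that removes the lipid Wnt ligands need for receptor binding. Notum had 424, 580, 446, 400 and 130 without Chir, against 648, 760, 432, 239 and 64 with all chemicals, so it was the smaller value on days 6 and 12, nearly level on day 18 and the larger one on days 22 and 30. Averaged over days, the log2 changes were -0.12 ± 0.43 for Nkd1 and 0.16 ± 0.26 for Notum (limma, adjusted p = 0.850 and 0.665).

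The change of the difference with day was tested as a slope per 10 days. Nkd1 (1.26 ± 0.25 log2 units, limma, adjusted p = 0.0460) and Notum (0.74 ± 0.15, adjusted p = 0.0493) had a positive slope, 2 of 10 genes against 2.34% of all genes. None of the 10 had a negative slope that passed the limma test, against 1.27% of all genes. Lef1 had a slope of 1.07 ± 0.24 (limma, adjusted p = 0.0592) and Dkk1 one of -1.79 ± 0.59 (adjusted p = 0.138). The slopes of Nkd1 and Notum missed the threshold when day 6 (0.169 and 0.112), day 12 (0.140 and 0.134), day 18 (0.0800 and 0.112) or day 22 (0.0990 and 0.115) was left out. Without day 30, Nkd1 passed together with Lgr5 (2.01, limma adjusted p = 0.0350) and Dkk1 (-3.30, adjusted p = 0.0271), and Notum did not (0.0822).

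Counted day by day, 9, 9, 8, 8 and 7 of the 10 genes had a smaller score in minus Chir than in all chemical on days 6, 12, 18, 22 and 30. Among 16663 genes the share with a smaller score was between 43.5% and 48.5% on these days. The median log2 difference of the 10 genes was -1.91 on day 6, -1.31 on day 12, -0.81 on day 18, -0.95 on day 22 and -0.91 on day 30. With 1 library per course and day, single days carry no test.

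**Figure D3:**
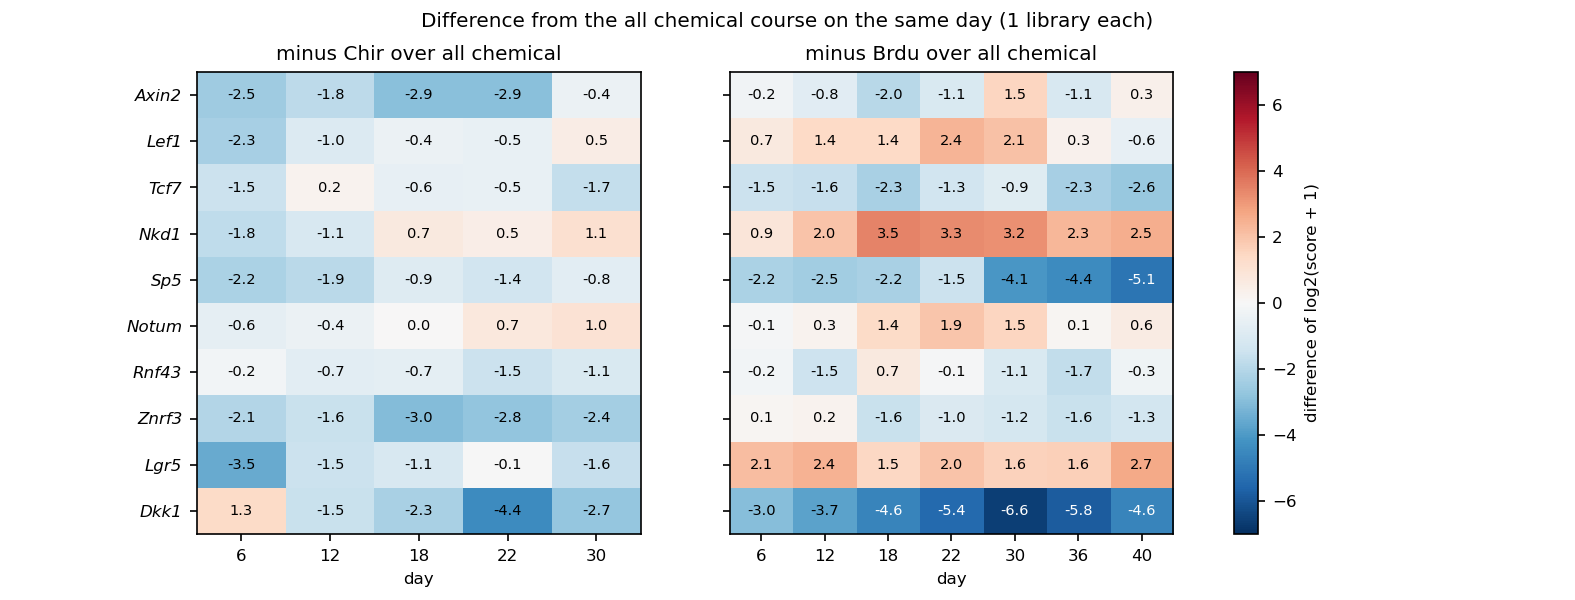
Log2 difference of each of the 10 genes on each day, minus Chir over all chemical in the left panel and minus Brdu over all chemical in the right panel. Red cells are higher and blue cells lower in the course that lacks the chemical. In the left panel Nkd1 is blue up to day 12 and red from day 18, and Notum is blue up to day 12, near 0 on day 18 and red on days 22 and 30. Sp5, Tcf7 and Dkk1 are blue on all 7 days in the right panel.

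The minus Brdu course still received Chir and so gives a second course with the GSK3 inhibitor. Against the all chemical course on 7 shared days, Lef1, Nkd1, Notum and Lgr5 were higher and Tcf7, Sp5, Znrf3 and Dkk1 were lower. That is 4 of 10 genes in each direction, against 21.1% of 16308 genes higher and 21.5% lower. This comparison uses the same all chemical libraries as the one for Chir. Axin2 was among those not called.

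Nkd1 and Lgr5 were higher on all 7 days. Lgr5 had 2335, 904, 162, 112, 392, 262 and 396 in the minus Brdu course on days 6 to 40, against 526, 166, 58, 27, 126, 83 and 62 in the all chemical course (log2 change 2.0 ± 0.16, limma, adjusted p = 0.000281). Nkd1 had 1580, 1136, 535, 440, 317, 286 and 298, against 867, 286, 48, 44, 34, 56 and 51 (log2 change 2.52 ± 0.29, limma, adjusted p = 0.000679). In both courses these genes were at their highest on day 6. Lef1 had 524, 325, 179, 241, 79, 78 and 64, against 330, 122, 68, 46, 18, 62 and 95, and was higher on 6 days (log2 change 1.09 ± 0.33, limma, adjusted p = 0.0251). Notum had 612, 918, 1103, 918, 180, 74 and 80, against 648, 760, 432, 239, 64, 68 and 53, also higher on 6 days (log2 change 0.81 ± 0.25, limma, adjusted p = 0.0287).

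Sp5, Tcf7 and Dkk1 were lower on all 7 days without Brdu, and for Sp5 and Dkk1 the ranges did not overlap. Dkk1 had 0, 4, 2, 2, 0, 0 and 0 in the minus Brdu course, against 7, 66, 72, 128, 97, 56 and 24 in the all chemical course, so it was listed at 0 on 4 of 7 days (limma, adjusted p = 0.000359). Sp5 had 4, 5, 3, 7, 0, 2 and 0, against 22, 32, 18, 22, 16, 62 and 34 (limma, adjusted p = 0.00163). No fold is given for this pair, because some libraries are listed at 0. Tcf7 had 106, 39, 28, 36, 46, 24 and 26, against 308, 120, 140, 91, 84, 123 and 166 (log2 change -1.79 ± 0.23, limma, adjusted p = 0.000867).

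Of the ligases and Axin2, Znrf3 was lower and the others were not called. Znrf3 had 76, 45, 30, 36, 41, 45 and 46 in the minus Brdu course, against 70, 38, 90, 74, 97, 134 and 114, smaller from day 18 on (log2 change -0.90 ± 0.27, limma, adjusted p = 0.0235). Axin2 had 328, 214, 118, 167, 367, 112 and 247, against 390, 365, 462, 354, 131, 249 and 194 (log2 change -0.48 ± 0.36, limma, adjusted p = 0.294), with day 30 and day 40 running opposite to the other 5 days. Rnf43 had 32, 8, 20, 28, 38, 27 and 56, against 36, 24, 12, 30, 80, 90 and 68 (log2 change -0.58 ± 0.31, limma, adjusted p = 0.154). The calls of Tcf7, Nkd1, Sp5, Lgr5 and Dkk1 held with any 1 day left out. Lef1 missed the threshold without day 12 (0.0566), 18 (0.0593), 22 (0.0626) or 30 (0.0671), Notum without day 18 (0.0743), 22 (0.0663), 30 (0.0765) or 40 (0.0521), and Znrf3 without day 18 (0.0627), 22 (0.0525), 30 (0.0604), 36 (0.0661) or 40 (0.0629).

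The courses that lacked 1 chemical were then compared directly, on 5 days and without the all chemical libraries. In minus Chir, Axin2, Lef1, Nkd1, Notum, Znrf3 and Lgr5 were lower than in minus Brdu, 6 of 10 genes against 15.2% of 16087 genes. Dkk1 was higher, 1 of 10 genes against 16.9% of all genes. The same 7 genes were called with any 1 of the 5 days left out, and each differed in the same direction on 5 of 5 days.

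Among the 6 lower genes, Lgr5 and Nkd1 had the widest gaps. Lgr5 lay between 26 and 58 in minus Chir, against 112 to 2335 in minus Brdu, where the day 6 score was 53.1 times as high (log2 change -3.51 ± 0.48, limma, adjusted p = 0.00229). Nkd1 lay between 62 and 254 in minus Chir, against 317 to 1580 in minus Brdu (log2 change -2.68 ± 0.16, limma, adjusted p = 0.000152). Lef1 lay between 26 and 65 in minus Chir, against 79 to 524 in minus Brdu (log2 change -2.32 ± 0.24, limma, adjusted p = 0.000914). The ranges of these 3 genes did not overlap, nor did those of Axin2 (46 to 101 in minus Chir, against 118 to 367 in minus Brdu) and Znrf3 (10 to 18, against 30 to 76).

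For Axin2 the log2 change was -1.60 ± 0.21 (limma, adjusted p = 0.00206) and for Znrf3 it was -1.68 ± 0.24 (adjusted p = 0.00282). Notum was lower by less, with a log2 change of -0.83 ± 0.16 (limma, adjusted p = 0.00822) and overlapping ranges. Dkk1 lay between 5 and 22 in minus Chir, against 0 to 4 in minus Brdu (limma, adjusted p = 0.00959). Tcf7 (0.70 ± 0.40, limma, adjusted p = 0.208), Sp5 (1.08 ± 0.55, adjusted p = 0.168) and Rnf43 (-0.41 ± 0.38, adjusted p = 0.439) were not called.

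Several of the genes already stood above their MEF score on day 6 without Chir. Notum was listed at 0 in MEF and had 424 on day 6 without Chir, 612 without Brdu and 648 with all chemicals. Lef1 was also listed at 0 in MEF and had 65, 524 and 330 in the same order of courses. Tcf7 had 110 on day 6 without Chir and 308 with all chemicals, 22 and 61.6 times its MEF score of 5, and Axin2 had 70 and 390, 4.12 and 22.9 times its MEF score of 17. Lgr5 and Znrf3 went the other way without Chir, at 44 and 16 on day 6, against 208 and 32 in MEF, whereas both lay above MEF on day 6 of the other courses. Each of these values is 1 library, so no test was made. The MEF library also held the highest summed score of 6 macrophage markers, 3276, against 26 to 335 in the 19 course libraries, and whether such cells add to its scores was not tested.

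Within the all chemical course the 10 genes did not run in parallel. Lef1, Tcf7, Nkd1, Notum and Lgr5 had their highest score on day 6 or 12, and Nkd1 had 48 on day 18, against 867 on day 6. Axin2 kept 354 to 462 up to day 22 and then lay between 131 and 249, and Dkk1 was highest on day 22, at 128. Sp5 and Znrf3 were highest on day 36, at 62 and 134, and so was Rnf43, at 90.

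Over the 20 libraries of MEF and the courses, Pearson's r of log2(score + 1) described which genes varied alike. These libraries share courses and neighbouring days, so r is a description. The values were 0.83 for Lef1 and Notum, 0.77 for Sp5 and Dkk1, 0.76 for Lef1 and Nkd1, 0.76 for Nkd1 and Lgr5 and 0.73 for Tcf7 and Sp5. Dkk1 ran opposite to Nkd1 (-0.65) and Lgr5 (-0.62). With Axin2, r was 0.69 for Lef1 and 0.64 for Znrf3, at ranks 43 and 90 of 13926 genes. The 8 genes most like Axin2 were St6galnac3 (0.87), Gm10143 (0.79), Slc25a44 (0.78), AU041133 (0.78), Tecpr2 (0.78), Egflam (0.78), B4galnt4 (0.76) and Cacna1d (0.76), none of them among the 10 genes or the Wnt pathway lists.

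In CiPSC, set against MEF, Axin2, Tcf7, Sp5, Notum and Znrf3 were higher, 5 of 10 genes against 22.4% of 16288 genes, and Lgr5 and Dkk1 were lower, 2 of 10 genes against 17.9%. Tcf7 averaged 301 ± 75.0 in CiPSC (SD, n = 6), 60.2 times its score of 5 in MEF (log2 change 5.62 ± 0.35, limma, adjusted p = 8.56e-05). Notum averaged 386 ± 92.1 and Sp5 70.2 ± 46.3 in CiPSC, and both were listed at 0 in MEF (limma, adjusted p = 9.70e-06 and 0.00353). Axin2 averaged 164 ± 60.7 in CiPSC, against 17 in MEF (log2 change 3.13 ± 0.46, limma, adjusted p = 0.00324). Znrf3 averaged 82.5 ± 13.6 in CiPSC, against 32 in MEF (log2 change 1.32 ± 0.27, limma, adjusted p = 0.0116).

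Lgr5 had 5, 2, 2, 3, 2 and 3 in the CiPSC libraries, against 208 in MEF, so it was close to the bottom of the scale in all 6 (log2 change -5.82 ± 0.44, limma, adjusted p = 0.000220). Dkk1 had 0, 1, 2, 1, 1 and 1, against 5 in MEF (limma, adjusted p = 0.0454), a call that was lost without CiPSC 2 (0.0735), 4 (0.0762), 5 (0.0723) or 6 (0.0753) and with a pseudocount of 0.5 (0.0847). Nkd1 had 6, 3, 10, 0, 0 and 15 in CiPSC, against 37 in MEF, and Rnf43 had 10, 0, 34, 19, 0 and 0, against 16, and neither passed the limma test (adjusted p = 0.190 and 0.558). Lef1 had 32, 0, 26, 13, 34 and 8 in CiPSC and was listed at 0 in MEF, and was called without CiPSC 2 (limma, adjusted p = 0.0164) but not with it (0.189). In this comparison the spread comes from CiPSC alone, and the lone MEF library is assumed to vary like CiPSC. Any difference of batch between CiPSC and MEF cannot be told apart from one of cell state.

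Day 40 of the all chemical course is also 1 library, so here too the spread comes from CiPSC alone and that library is assumed to vary like CiPSC. Against it, Notum was higher in CiPSC, 1 of 10 genes against 14.8% of 16288 genes, and Lgr5 and Dkk1 were lower, 2 of 10 genes against 12.5%. Notum averaged 386 in CiPSC, against 53 on day 40 (log2 change 2.81 ± 0.35, limma, adjusted p = 0.00317). Lgr5 averaged 2.83 ± 1.17 in CiPSC, against 62 on day 40 (log2 change -4.09 ± 0.44, limma, adjusted p = 0.00191), and Dkk1 averaged 1 ± 0.632, against 24 (log2 change -3.71 ± 0.51, adjusted p = 0.00467). Axin2 (-0.31 ± 0.46, limma, adjusted p = 0.675), Tcf7 (0.82 ± 0.35, 0.138), Sp5 (0.80 ± 0.90, 0.564) and Znrf3 (-0.48 ± 0.27, 0.254) did not pass the test.

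Of the 87 other Wnt pathway genes tested in minus Chir over all chemical, 12 were higher and 11 lower, shares close to the 13.5% of all genes that were higher and the 12.9% that were lower. The count of calls therefore does not set these genes apart from the rest of the table, and the genes below are given for their own values. Among ligands and the genes that secrete them, 2 of 15 were higher, 2 lower and 11 not called, also near the shares of all genes. Wnt6, a ligand, had 64, 175, 139, 72 and 16 without Chir, against 10, 38, 30, 36 and 8 with all chemicals (log2 change 1.76 ± 0.32, limma, adjusted p = 0.0150). Wls, the carrier that takes Wnt ligands to the cell surface, had 1538, 1588, 1560, 1374 and 2638 without Chir, against 1094, 876, 516, 324 and 616 (log2 change 1.42 ± 0.27, adjusted p = 0.0155). Both were higher on all 5 days. The ligand Wnt7b (-1.75 ± 0.35) and Porcn (-0.98 ± 0.30), which adds the lipid to Wnt ligands, were lower (limma, adjusted p = 0.0176 and 0.0461).

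Among receptors and R-spondins, 4 of 21 were higher, 3 lower and 14 not called, beside 13.5% of all genes higher and 12.9% lower. Lgr4, a relative of Lgr5, was lower, with 142, 110, 84, 90 and 108 without Chir, against 178, 308, 644, 726 and 1244 with all chemicals, so the gap was widest on the later days (log2 change -2.25 ± 0.45, limma, adjusted p = 0.0174). The R-spondin Rspo1 was higher, with 96, 110, 77, 80 and 16 without Chir, against 28, 24, 16, 8 and 1 (log2 change 2.47 ± 0.31, limma, adjusted p = 0.00806). Lgr6, another receptor of the Lgr5 family, was higher (2.51 ± 0.53, limma, adjusted p = 0.0192). Its scores were low, at 24, 38, 46, 36 and 4 without Chir, against 18, 4, 2, 4 and 0, so this change rests on scores near 0. Lrp6, a co-receptor, was lower (-0.76 ± 0.16, limma, adjusted p = 0.0183).

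Of 22 genes of the beta-catenin machinery, 1 was higher, 4 were lower and 17 were not called, beside the same 13.5% and 12.9% of all genes. Gsk3b, which encodes a kinase that Chir inhibits, had 455, 378, 416, 452 and 418 without Chir, against 924, 567, 534, 596 and 630 (log2 change -0.59 ± 0.14, limma, adjusted p = 0.0266), so its RNA was lower on each day. Dvl3, a Dishevelled that relays the receptor signal, had 47, 93, 28, 34 and 16 without Chir, against 318, 169, 199, 276 and 268 (log2 change -2.67 ± 0.40, limma, adjusted p = 0.0105). Tcf7l2, a partner of beta-catenin, was lower (-1.50 ± 0.39, limma, adjusted p = 0.0312), and Btrc, which reads the mark on beta-catenin, was higher (0.51 ± 0.14, adjusted p = 0.0347).

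Of 13 other antagonists, 1 was higher, 1 lower and 11 not called, beside 13.5% of all genes higher and 12.9% lower. The secreted antagonist Sfrp5 had 2, 7, 3, 0 and 3 without Chir, against 46, 39, 36, 16 and 62 with all chemicals (limma, adjusted p = 0.00648), and Trabd2b, a protease that cleaves Wnt ligands, was higher (1.36 ± 0.39, adjusted p = 0.0401). Of 16 other genes described as Wnt targets, 4 were higher, 1 lower and 11 not called, beside the same shares of all genes. Ccnd1, a cyclin that drives entry into the cell cycle, had 798, 3082, 4502, 4502 and 1046 without Chir, against 704, 478, 300, 167 and 107 with all chemicals (log2 change 2.96 ± 0.58, limma, adjusted p = 0.0167). Id2, an inhibitor of helix-loop-helix factors, had 3088, 1535, 1368, 1342 and 570, against 856, 729, 514, 660 and 96 (1.58 ± 0.24, adjusted p = 0.0107). Bambi, a decoy receptor of the TGF-beta family, had 284, 156, 139, 131 and 108, against 68, 63, 55, 68 and 64 (1.27 ± 0.22, adjusted p = 0.0138). These 3 were higher on all 5 days, and the receptor tyrosine kinase Ephb2 was lower (-2.58 ± 0.51, limma, adjusted p = 0.0171). Of the 23 calls, 21, 16, 0, 3 and 15 held in limma without day 6, 12, 18, 22 or 30, all 23 with the same sign and an unadjusted p under 0.05 each time.

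**Figure D4:**
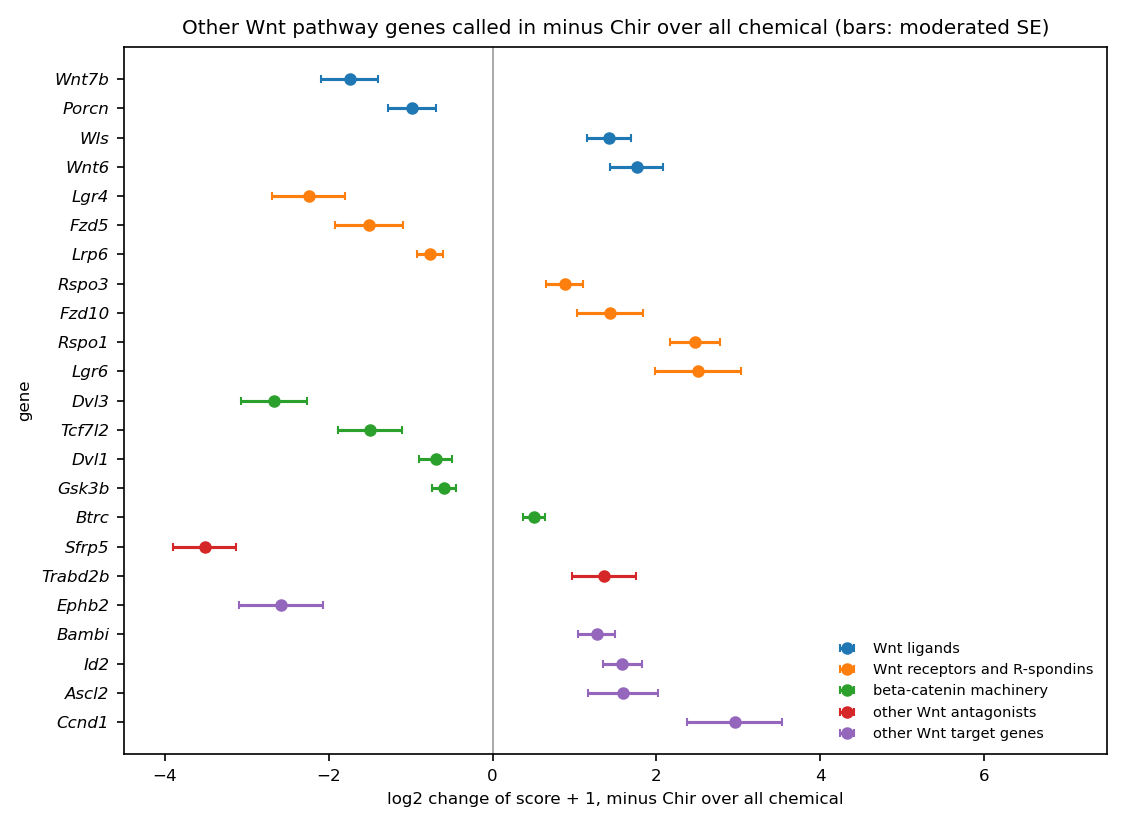
Log2 changes of the other Wnt pathway genes called in minus Chir over all chemical, with moderated standard errors over 5 days, by gene list. Points right of 0 are higher without Chir. Ccnd1, Lgr6 and Rspo1 lie farthest to the right and Sfrp5 farthest to the left. Lgr6 had scores near 0 in most all chemical libraries compared, and Sfrp5 in the minus Chir libraries.

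In the minus Brdu course, 7 of 14 ligand genes and 9 of 13 other antagonists were higher than with all chemicals and 1 of each list was lower, beside the 21.1% of all genes higher and 21.5% lower. Of receptors and R-spondins 9 of 21 were higher and 4 lower, and of the beta-catenin machinery 3 of 22 were higher and 5 lower. Of other Wnt targets 5 of 17 were higher and 4 lower. In minus Chir over minus Brdu, 6 of 15 ligand genes and 9 of 13 other antagonists were lower, beside 15.2% of all genes. Higher were 1 and 0 of these lists, beside 16.9% of all genes. The other lists did not share this direction throughout. Of other Wnt targets 8 of 16 were higher and 5 lower, and of receptors and R-spondins 5 of 21 were higher and 5 lower. Of the beta-catenin machinery 2 of 22 were higher and 8 lower.

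Markers of cell types moved with the same contrasts, and in bulk RNA fewer cells of a type and less RNA per cell cannot be told apart. The marker lists were chosen with earlier results of these data known, so their shares beside those of all genes are a description. Without Chir, 7 of 8 extraembryonic endoderm markers, 6 of 10 pluripotency markers and 4 of 6 epithelial markers were lower than with all chemicals, beside 12.9% of all genes. Of the fibroblast markers 2 of 10 and of the endothelial markers 1 of 4 were lower. Higher were 5 of 6 adipocyte and 2 of 6 macrophage markers, beside 13.5% of all genes, and the macrophage markers summed to 123 to 335 in minus Chir, against 26 to 71 in all chemical. Ranges of sums cover the 5 libraries of minus Chir and all 7 of each other course, with days 36 and 40 included. The summed score of the endoderm markers was 2059 to 4004 in minus Chir and 1528 to 2124 in minus Brdu, against 3218 to 32446 in all chemical. That of the adipocyte markers was 2284 to 4916 in minus Chir and 788 to 3577 in minus Brdu, against 437 to 914 in all chemical. That of the fibroblast markers was 10286 to 27632 in minus Chir and 35282 to 67448 in minus Brdu, against 10203 to 40298 in all chemical, and 7 of 10 were higher in minus Brdu than in all chemical, beside 21.1% of all genes. In minus Brdu, 8 of 8 endoderm, 8 of 10 pluripotency and 5 of 6 epithelial markers were lower than in all chemical, beside 21.5% of all genes. In minus Chir over minus Brdu, 8 of 10 fibroblast markers were lower, beside 15.2% of all genes. There 4 of 8 endoderm markers were higher and 1 lower, and 3 of 8 pluripotency and 3 of 6 adipocyte markers were higher, beside 16.9% of all genes. The part of these cell types in the differences of the 10 genes was not tested. A sum is carried by the genes of a list with the highest scores. The endoderm marker Col4a1 had 21988, the maximum of each library, on days 22 to 40 of all chemical. The fibroblast markers Col1a1 and Col1a2 had 21988 each in MEF and on days 30 to 40 of minus Brdu. The adipocyte marker Lpl had 3643 on day 30 of minus Chir. The pluripotency markers summed to 27371 to 42933 in CiPSC, against 16 in MEF, where Zfp42, Esrrb, Sall4 and Utf1 were listed at 0, and the fibroblast markers to 68 to 441 in CiPSC, against 60273 in MEF.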

How the data were processed

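Total RNA was extracted with TRIzol and sequenced from TruSeq libraries, per the labels' protocols. Per the submitters' processing notes, bcl2fastq, Bowtie2, RSEM and the mm10 genome were used; versions, annotation and normalization are not given in the sources used here. The values the authors deposited, for 16718 genes in 26 libraries, are treated here as a score. The table is named as CPM, but all libraries share nearly the same total, median and maximum, so no count test was possible and no counting interval is given.

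Scores were analysed as log2(score + 1) in R 4.3.3 with limma 3.58.1 and an intensity trend, keeping genes that averaged at least 1 in the libraries compared, with day as a block between courses. Tests were two-sided, with Benjamini-Hochberg adjustment over all genes tested and a threshold of 0.05. The method was checked on simulated data with independent libraries, so the check cannot show how using days of 1 course as repeats affects the p-values. CiPSC, MEF and day 40 of the all chemical course entered 1 fit. The 10 genes and the lists of pathway and marker genes were chosen with earlier results of these data known. From each pathway list, up to 4 called genes with the lowest p in minus Chir over all chemical are named. Genes like Axin2 were sought among those with a mean of at least 10, and the 8 highest are named. Promoters come from RefSeq and positions from GENCODE M21. The labels give no sequencing batch. CiPSC libraries are titled in another form than the MEF and course libraries, and whether they were prepared or sequenced apart is not stated. Any such difference from MEF or day 40 cannot be told apart from one of cell state. Alternatives were the pseudocount, the filter, median ratio scaling, no intensity trend, no day block, 1 fit over 19 course libraries, days 6 to 30 only, and leaving out each day or CiPSC library.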

Additional observations from a re-analysis of the deposited data

Results flagged for a closer look

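Among the CiPSC libraries, the Axin2 score of CiPSC 6 was 282, apart from the other 5, which lay between 108 and 167. The Lgr5 score of CiPSC 1 was 5, while the other 5 were at 2 or 3, near the bottom of the scale. Each gap was wide for a group of 6 by Dixon's criterion, which chance alone meets in about 1 of 20 groups, and 10 genes were looked at.

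The difference between minus Chir and all chemical changed with day for Nkd1, by 1.26 log2 units per 10 days (limma, adjusted p = 0.0460), and for Notum, by 0.74 (adjusted p = 0.0493). Both slopes missed the threshold without day 6, 12, 18 or 22, with no filter on low values and with no intensity trend. For Nkd1 the minus Chir score was the smaller one on days 6 and 12 and the larger one on days 18, 22 and 30, and for Notum it was smaller on days 6 and 12 and larger on days 22 and 30, with 446 against 432 on day 18.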

How the results depend on the processing

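No direction of any of the 10 genes' called changes reversed under the alternatives run. In minus Chir over all chemical, 4 of the 10 genes and 4298 of all genes were called. With 1 fit over 19 course libraries these counts were 7 and 6895, and with each day left out they ranged from 0 to 6 and from 25 to 4994. At 0, without day 18, limma gave 5 of the 10 genes an unadjusted p under 0.05. Lgr5 was also lost with no filter on low values (adjusted p = 0.0693) and with no intensity trend (0.0631). In minus Brdu over all chemical, 8 of the 10 genes and 6946 of all genes were called. Over days 6 to 30 only, 3735 genes were called, and Notum (0.0595) and Znrf3 (0.157) were lost; with each day left out 5 to 8 of the 10 genes were called. In minus Chir over minus Brdu, 5176 genes were called, and 2772 to 4783 with each day left out. For the change of the Chir effect with day, 2 of the 10 genes and 587 of all genes were called. These counts were 0 and 0 with no filter on low values and with no intensity trend, and 0 to 3 and 0 to 786 with each day left out. In limma, 4 of the 10 genes and 3756 of all genes had an unadjusted p under 0.05 with no filter, and 5 and 3479 with no trend. With days 6, 12, 18 and 22 left out in turn, 4 of the 10 genes had one each time, and 3619, 2999, 3198 and 3055 of all genes.

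Without the day block, 3 of the 10 genes were called in minus Chir over all chemical (Lgr5 lost, 0.0956), 6 in minus Brdu over all chemical (Lef1, 0.154, and Notum, 0.449, lost) and 6 in minus Chir over minus Brdu (Notum lost, 0.250). No paired analysis was possible for CiPSC because MEF and day 40 of the all chemical course had 1 library each. Median ratio scaling moved the median log2 change of all genes to -0.09, against 0.17, in CiPSC over MEF, and to -0.12, against 0.07, in CiPSC over day 40, and the same genes of the 10 were called. With a mean of at least 5, Dkk1 was not tested against MEF or day 40. The cause of these changes was not tested. Depth is unknown, so how far low scores such as those of Sp5, Lgr5 and Dkk1 rest on few reads cannot be stated.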
